A study of Mus musculus with 32 samples.

Results

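Described here are 10 genes of arginine, polyamine and citrulline metabolism across the jaw primordia of mouse embryos: the arginases Arg1 and Arg2, the citrulline-handling enzymes Ass1 and Asl, the polyamine enzymes Odc1, Srm and Sms, the arginine transporters Slc7a1 and Slc7a2, and the endothelial nitric oxide synthase Nos3. These 10 genes were matched by the platform's gene symbols, and 8 of them were among the 13705 genes that passed a filter on low signal. The group was selected on a measured value, since Arg1 had the largest rise of all genes in the mutant proximal mandible; the other 9 act on the same metabolites. The genotype contrast in the proximal mandible is therefore given as a description, with no test, for every one of them.

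Arginase splits arginine into ornithine and urea. Ornithine decarboxylase, Odc1, commits ornithine to polyamine synthesis, and the synthases Srm and Sms then extend the product to spermidine and spermine, small polycations that growing cells need. Nitric oxide synthases use the same arginine and release citrulline, which Ass1 and Asl turn back into arginine, while Slc7a1 and Slc7a2 bring arginine in from outside the cell. Arg1 is best known from the urea cycle of liver and from some macrophages.

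Expression was measured on 32 Affymetrix mouse expression arrays of C57B6 embryos at embryonic day 13.5. The mutants were Wnt1-Cre embryos with floxed Alk5 (a receptor for TGF-beta ligands whose gene symbol is Tgfbr1), recognised by a cleft palate together with a defect of the calvaria. Wnt1-Cre acts in neural crest, so other cells of the jaw keep the receptor. The controls were littermates whose own genotype is not given beyond that, and since 1 parent was Alk5 fl/fl, embryos of both genotypes carried a floxed allele. Distal and proximal ends of the mandible and of the maxilla from control and mutant made 8 groups of 4 arrays, numbered 1 to 4. The labels do not say whether different numbers are different embryos, so each p-value rests on array-to-array spread alone, which may be partly technical.

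The arrays had medians of 7.35 to 7.49 on the RMA log2 scale, and no array held the same values as another. The jaw markers Prrx1, Twist1, Msx1, Msx2 and Prrx2 were measured in every group. Tgfbr1 was no lower in the mutants, at 12.80 to 13.32 against 12.55 to 12.82 in the controls; whether its probe set lies in the deleted part is not known here, so it does not check the labels. The 8 arrays numbered 1 carried more of the Cre hybridisation spike-in (13.68 to 13.97) than the other 24 (12.42 to 13.23). On control distal mandible 3 the 3′ Gapdh probe set exceeded the 5′ one by 2.23, against -0.18 to 0.12 elsewhere. In the maxilla, the distal-minus-proximal profiles of control 2 and mutant 4 correlated at 0.76 with each other. With those of the other 6 numbers they correlated at -0.83 to -0.06. The other 6 correlated at -0.002 to 0.74 among themselves, with mutant 1 at only -0.002 to 0.22. The ends of control 2 and mutant 4 thus ran against their labels relative to most of the rest. Maxilla results that moved without these 4 arrays are given both ways.

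The platform carried 21 probe sets for the 10 genes. For 8 genes a probe set naming that gene alone passed the filter, which asked for a value above its array's 40th percentile on at least 4 arrays. Ass1 and Sms were measured on probe sets shared with the pseudogenes Gm5424 and Sms-ps, so their values cannot be assigned to the gene alone, and they were tested among 14117 features that include such sets. The Ass1 probe set without the pseudogene stayed under the 40th percentile on all 32 arrays.

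Arg1 showed the widest range of the group. In the mandible its 4 control proximal arrays read 4.97, 6.06, 6.44 and 6.73 and its 4 mutant proximal arrays 9.57, 9.63, 9.64 and 9.56. Mutant values lay close together above every control value, whereas the controls were scattered and mostly under the 40th percentile of their arrays (6.66 to 6.86 over all 32 arrays), the level below which signal was treated as low. The difference was 3.55 on the log2 scale, the contrast that chose the gene. The gene with the next largest rise, Igdcc3, was higher by 2.36 in the same contrast. In all, 172 of 13705 genes (1.26%) were called there, where called means an adjusted p under 0.05 from limma's moderated test with Benjamini-Hochberg adjustment over all genes tested; nothing is read from the members here.

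In the distal mandible Arg1 stayed low in both genotypes. Control arrays read 6.07, 6.01, 6.30 and 6.41 and mutant arrays 6.54, 5.71, 6.09 and 6.46. The groups overlapped fully, with a difference of 0.00 ± 0.63 (SE, n = 4 a group, 95% interval -1.29 to 1.30, limma adjusted p = 0.999). The SE of each comparison of groups rests on 1 spread per gene pooled over all 8 groups. For Arg1 the SDs of single groups ran from 0.04 to 1.45. The pooled SE thus overstates the spread in distal mandible (SDs 0.19 and 0.38) and understates it in proximal maxilla (1.45 and 1.33).

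In the distal maxilla, which the choice of genes did not use, control arrays read 5.77, 8.83, 6.43 and 6.52 and mutant arrays 8.15, 9.32, 9.98 and 9.39. Control 2 stood high among the mutants, and the other 3 controls lay below all 4 mutants and under the 40th percentile of their arrays, so the control level is mostly low signal. The difference was 2.32 ± 0.63 (SE) and did not pass the test (limma adjusted p = 0.0789). Without that control array it was 2.97 (limma adjusted p = 0.00843), and without the 4 maxilla arrays whose ends ran against their labels 2.91 (limma adjusted p = 0.0235). It also passed without number 2 (2.93, limma adjusted p = 0.0488), whereas without number 3 it was 1.91 (limma adjusted p = 0.461); 5 of 25 alternatives passed, with adjusted p from 7.58e-05 to 0.461.

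In the proximal maxilla the control arrays read 8.04, 8.84, 9.37 and 6.06 and the mutant arrays 9.62, 10.01, 7.17 and 8.06. Both genotypes covered most of the range of the gene, and their values were interleaved (difference 0.63 ± 0.63, limma adjusted p = 0.999; 1.10 without the 4 arrays named above). Some arrays of control maxilla held Arg1 at levels that no array of control mandible reached. In control tissue, mandible minus maxilla was -2.03 at the proximal end, a description because its mandible arrays helped to choose the gene, and -0.69 at the distal end (± 0.63, limma adjusted p = 0.838), a difference of -0.04 without the 4 arrays.

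By group mean, Arg1 was ordered from mutant proximal mandible (9.60 ± 0.04, SD, n = 4) through mutant distal maxilla (9.21 ± 0.77), mutant proximal maxilla (8.71 ± 1.33), control proximal maxilla (8.08 ± 1.45) and control distal maxilla (6.89 ± 1.34) to mutant distal mandible (6.20 ± 0.38), control distal mandible (6.20 ± 0.19) and control proximal mandible (6.05 ± 0.77). Each group overlapped the next in this order. The average genotype effect over the 3 regions other than the proximal mandible was 0.99 ± 0.32 (limma on 4 against 4 averaged values, adjusted p = 0.256), with 32 of 13705 genes called (0.233%). The genotype effect in distal mandible minus that in distal maxilla was -2.32 ± 0.89 (limma adjusted p = 0.565; 14 genes called, 0.102%), and that in distal minus proximal maxilla 1.68 ± 0.89 (limma adjusted p = 0.998; 8 genes called, 0.0584%). The unadjusted 95% interval of the former was -4.15 to -0.49. Each of the 2 passed in 1 of 33 alternatives, with lowest limma adjusted p of 0.00514 and 0.00369. A difference in the response of Arg1 between the jaws at the distal end or between the maxilla ends was therefore not shown in the main fit.

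Arg2 encodes the mitochondrial arginase. Its tested probe set lay above the 40th percentile on 27 of 32 arrays, and the mutant distal mandible mean of 6.68 was near that level. A second Arg2 probe set was above it on 1 of 32 arrays and did not pass the filter. In the proximal mandible the Arg2 control arrays read 6.35, 7.74, 7.09 and 7.19 and the mutant arrays 7.81, 8.13, 7.73 and 7.65. Mutants were higher by 0.74, with control 2 inside their range. Elsewhere the genotype difference was -0.36 ± 0.30 in distal mandible, 0.31 ± 0.30 in distal maxilla and -0.15 ± 0.30 in proximal maxilla, none past the test (limma adjusted p from 0.608 to 0.999). Arg2 correlated with Arg1 at r = 0.64 over the 32 arrays and 0.30 after each group's mean was taken off. Both are descriptions, over arrays that share tissue, array number and normalization and include the contrast that chose Arg1.

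**Figure D1:**
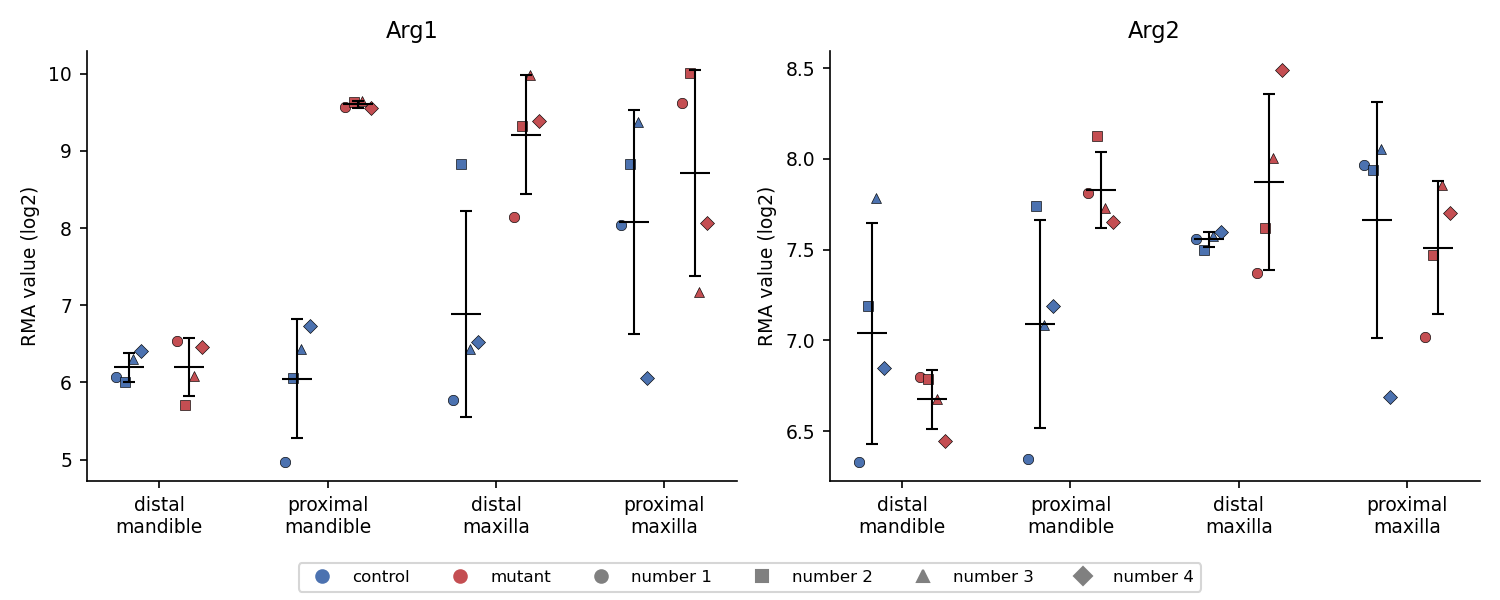
RMA log2 values of Arg1 and Arg2 on each of the 32 arrays (y axes) by jaw region (x axes), with control in blue, mutant in red, a marker shape for each array number, and the mean with SD (n = 4) in black. The 4 mutant proximal mandible arrays of Arg1 sit at 9.56 to 9.64 against 4.97 to 6.73 in the control, and both maxilla ends hold high and low arrays of control.

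Odc1, the entry enzyme of polyamine synthesis, was among the brightest probe sets. Control distal mandible arrays read 13.01, 13.11, 13.07 and 13.09 and mutant arrays 13.07, 13.49, 13.34 and 13.41, so all mutants but number 1 exceeded every control. The difference was 0.25 ± 0.10 (limma adjusted p = 0.215). It was 0.19 ± 0.10 in proximal maxilla, 0.11 ± 0.10 in distal maxilla, and 0.19 in proximal mandible as a description. The 4 mutant group means (13.30 to 13.36) all lay above the 4 control means (13.07 to 13.18), although neighbouring groups overlapped. With number 1 entered as a term the distal mandible difference was called (limma adjusted p = 0.0139), as it was without number 1 (0.32, limma adjusted p = 0.00732). Of 2 further Odc1 probe sets, 1 gave 0.37 ± 0.21 in distal mandible and the other 0.04 ± 0.09. In proximal mandible, as a description, they gave 0.38 and -0.04, so the order of group means did not hold on the latter set.

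The probe set shared by Sms, the spermine synthase gene on the X chromosome, and Sms-ps followed Odc1. In distal mandible the controls read 11.07, 11.78, 11.77 and 11.73 and the mutants 11.74, 12.08, 12.13 and 12.18. Number 1 was the lowest array of both genotypes, and mutant 1 lay inside the control range. The difference was 0.44 ± 0.20 (limma adjusted p = 0.283), and 0.37 without number 1 (limma adjusted p = 0.00472). Averaged over 3 regions it was 0.27 ± 0.18 (limma adjusted p = 0.682), 0.27 with number 1 as a term (limma adjusted p = 0.0293) and 0.27 without number 1 (limma adjusted p = 0.0482). The other 2 shared sets gave 0.89 ± 0.32 and 0.23 ± 0.24 in distal mandible. On the first set the 4 mutant means (11.84 to 12.16) again lay above the 4 control means (11.59 to 11.80). The other 2 sets gave -0.003 and -0.04 in distal maxilla, so that order did not hold on them.

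Odc1 and the Sms and Sms-ps probe set correlated at r = 0.82 over the 32 arrays and 0.77 within groups. Array number 1 was the lowest of its group in 8 of 8 groups for both, and the highest in 8 of 8 groups for Slc7a2, which correlated with the Sms set at -0.64 (-0.84 within groups). The higher spike-in of the same 8 arrays moved with these values, and its part in them was not tested. The mean of the proliferation markers (8 of 9 measured, 0 called) correlated with Odc1 at 0.57, also within groups, and was 12.54 in control and 12.68 in mutant distal mandible, with a range of 12.44 to 12.68 over the 8 group means. Their part in Odc1 was not tested. Xist, transcribed from the inactive X chromosome, was high on all arrays of control 2 and mutant 1 (13.34 to 14.06), at 9.69 to 10.72 on the maxilla arrays of control 3 and at 6.38 to 6.96 on the other 22; its part in the Sms values was not tested.

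**Figure D2:**
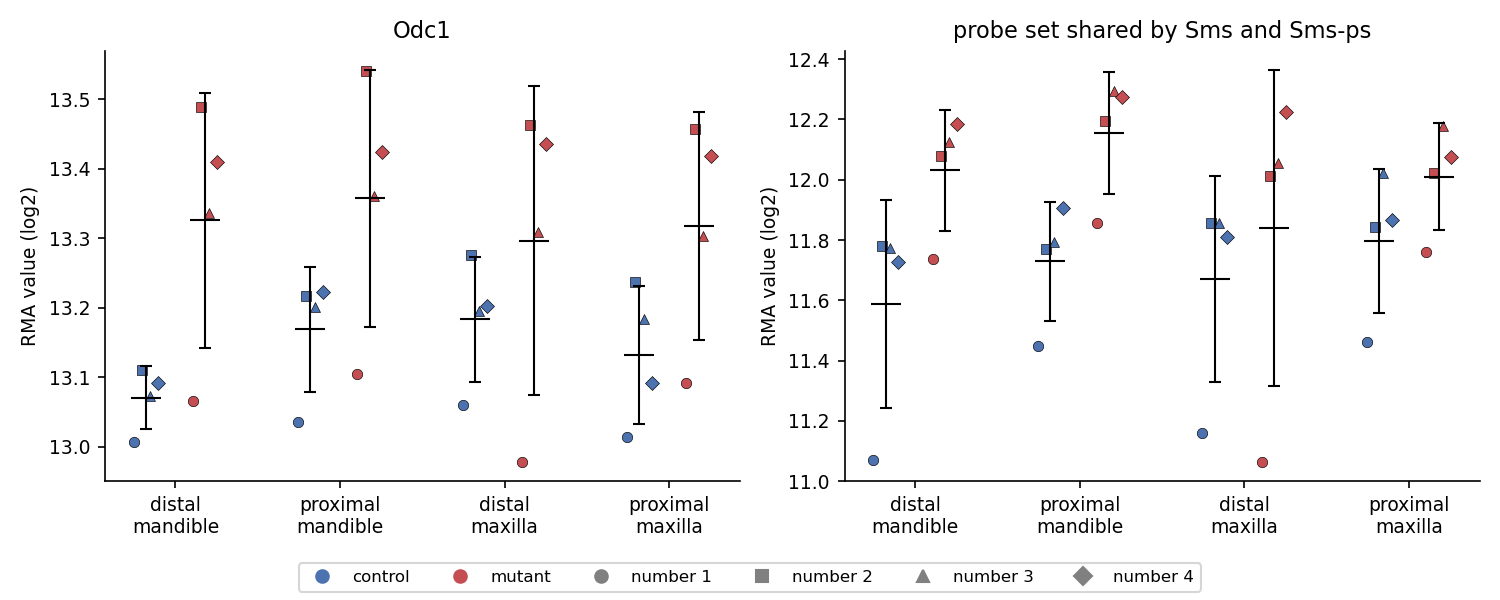
RMA log2 values of Odc1 and of the probe set shared by Sms and Sms-ps on each of the 32 arrays (y axes) by jaw region (x axes), drawn as control in blue and mutant in red with a marker shape for each number and mean with SD (n = 4). Number 1, the circle, is the lowest array in all 8 groups of both panels.

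The upstream DNA of Odc1 and Sms is shown as a description, from RefSeq's GRCm38.p6 promoter table, which matched 4 of the 10 genes (Ass1, Odc1, Sms and Slc7a1). Whether the 2 genes share regulation was not tested. Arg1, Arg2, Asl, Srm, Slc7a2 and Nos3 had no entry. Each run is 5′ to 3′ in the direction of the gene and ends at the base before the annotated gene start; capitals mark matches to GGGCGG on either strand, the core of a GC box, or to CACGTG, the palindromic E-box that Myc proteins can bind. Odc1 is shown from chr12:17544623-17544807 on the plus strand and Sms from chrX:157492288-157492537 on the minus strand.
Odc1: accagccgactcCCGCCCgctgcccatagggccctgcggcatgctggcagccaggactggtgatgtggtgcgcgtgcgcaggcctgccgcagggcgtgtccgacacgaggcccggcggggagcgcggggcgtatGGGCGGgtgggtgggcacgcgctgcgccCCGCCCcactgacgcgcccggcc
Sms: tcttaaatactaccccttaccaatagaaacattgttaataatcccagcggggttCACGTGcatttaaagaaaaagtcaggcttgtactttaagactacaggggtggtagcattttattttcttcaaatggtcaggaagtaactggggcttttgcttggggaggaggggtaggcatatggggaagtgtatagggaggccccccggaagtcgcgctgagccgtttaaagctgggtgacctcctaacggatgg
The 185 bases before Odc1 held 3 matches to GGGCGG and none to CACGTG, and the 250 bases before Sms 1 match to CACGTG and none to GGGCGG. Of 32851 promoters, 21.8% held GGGCGG and 3.88% CACGTG in the first 185 bases of their entry, and 32.7% and 6.02% in the first 250. Those windows were not cut at each gene's own start, so they match the 2 runs in length but not always in place. The matches did not overlap each other, and the 2 windows shared neither motif.

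Srm, the spermidine synthase gene, was the only member called in any of the 10 comparisons tested. In control proximal tissue its mandible arrays read 12.75, 12.19, 12.40 and 12.51 and its maxilla arrays 12.16, 12.14, 12.04 and 12.16. Every mandible array was higher than every maxilla array. The difference was 0.33 ± 0.09 (SE, n = 4 a group, limma adjusted p = 0.0337). That comparison called 740 of 13705 genes (5.4%), and 1 of the 7 members tested, with 3 of 7 at an unadjusted p under 0.05 against 15.1% of all genes. Other markers moved in the same comparison: 7 of 9 skeletal muscle markers were called higher in the mandible (median difference 2.79) and 4 of 7 neuron markers lower (median -2.12). Over the 32 arrays Srm correlated with their means at 0.52 and -0.59, and within groups at -0.06 and -0.25; their part in the result was not tested. The adjusted p ranged from 0.000859 to 0.282 over 25 alternatives and passed in 11. The call was lost when number 1, 3 or 4, control proximal mandible 1, 3 or 4, or any 1 of the control proximal maxilla arrays was left out, and without the 4 maxilla arrays named above (0.34, limma adjusted p = 0.0542).

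In the distal maxilla Srm was lower in the mutants. Control arrays read 12.35, 11.96, 12.18 and 12.33 and mutant arrays 11.63, 11.92, 11.97 and 11.83, so only control 2 lay among the mutants. The difference of -0.37 ± 0.09 missed the threshold (limma adjusted p = 0.0576) and passed without control 2 (-0.45, limma adjusted p = 0.0102), without number 2 (-0.48, limma adjusted p = 0.0287) and without the 4 maxilla arrays (-0.45, limma adjusted p = 0.0337); the adjusted p ranged from 0.00091 to 0.454. It was 0.03 ± 0.09 in distal mandible and -0.06 ± 0.09 in proximal maxilla, and -0.16 in proximal mandible as a description. Between the jaws at the control distal end Srm differed by 0.15 ± 0.09 (limma adjusted p = 0.681). The difference between the distal mandible and distal maxilla effects was 0.40 ± 0.13 (limma adjusted p = 0.426). Along Srm's order of groups, the 4 mandible means (12.30 to 12.46) stood above the 4 maxilla means (11.84 to 12.21), with each neighbouring pair overlapping.

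Asl, argininosuccinate lyase, lay at 7.93 to 9.33 over all arrays. Its genotype differences were 0.10 ± 0.20 in distal mandible, -0.09 ± 0.20 in distal maxilla, -0.04 ± 0.20 in proximal maxilla and 0.02 in proximal mandible. Mutant distal maxilla 1 read 7.93 against 9.15 to 9.31 on the other 3 mutant arrays, and without it the distal maxilla difference was 0.23 (limma adjusted p = 0.527). The set shared by Ass1 and Gm5424 ran from 7.06 to 8.89, was highest on number 1 in 7 of 8 groups, and differed between genotypes by -0.31 ± 0.31, -0.03 ± 0.31 and -0.13 ± 0.31 in distal mandible, distal maxilla and proximal maxilla (limma adjusted p from 0.696 to 0.999).

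Of the arginine transporters, Slc7a1 was lower in mutant proximal maxilla, with control arrays at 10.69, 10.40, 10.64 and 10.50 and mutant arrays at 10.11, 10.36, 10.43 and 10.06. Mutant 3 was the only mutant array above any control. The difference of -0.32 ± 0.10 was not called (limma adjusted p = 0.369). It was -0.10 ± 0.10 in distal mandible, -0.15 ± 0.10 in distal maxilla and -0.05 in proximal mandible. A second Slc7a1 probe set gave -0.22 ± 0.10 in proximal maxilla. Slc7a2, which unlike Slc7a1 had 3 of its 4 probe sets under the filter, read 9.69, 9.35, 9.27 and 9.07 in control and 9.40, 8.82, 9.04 and 8.79 in mutant distal maxilla. Mutants 2, 3 and 4 lay below every control and mutant 1 among the controls (-0.33 ± 0.18, limma adjusted p = 0.447, and 0.0463 with number 1 as a term). In control proximal tissue its mandible read below its maxilla (-0.37 ± 0.18, limma adjusted p = 0.308, and 0.00922 with number 1 as a term).

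Nos3, whose product makes nitric oxide in endothelium, read 8.29, 8.10, 8.14 and 7.88 in control and 7.87, 7.64, 7.65 and 7.81 in mutant distal mandible. Every mutant array was below every control array, though the nearest pair almost met, and the difference was -0.36 ± 0.15 (limma adjusted p = 0.218). It was -0.24 ± 0.15 in distal maxilla, 0.03 ± 0.15 in proximal maxilla and -0.33 in proximal mandible as a description. Endothelial markers (10 of 10 measured) correlated with Nos3 at 0.61 over arrays and 0.68 within groups; their mean was 9.73 in control and 9.83 in mutant distal mandible, where Nos3 was lower in the mutants, and 9.93 against 9.63 in distal maxilla. Their part in Nos3 was not tested. In bulk tissue, fewer cells of a type and less RNA in each cell cannot be told apart.

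**Figure D3:**
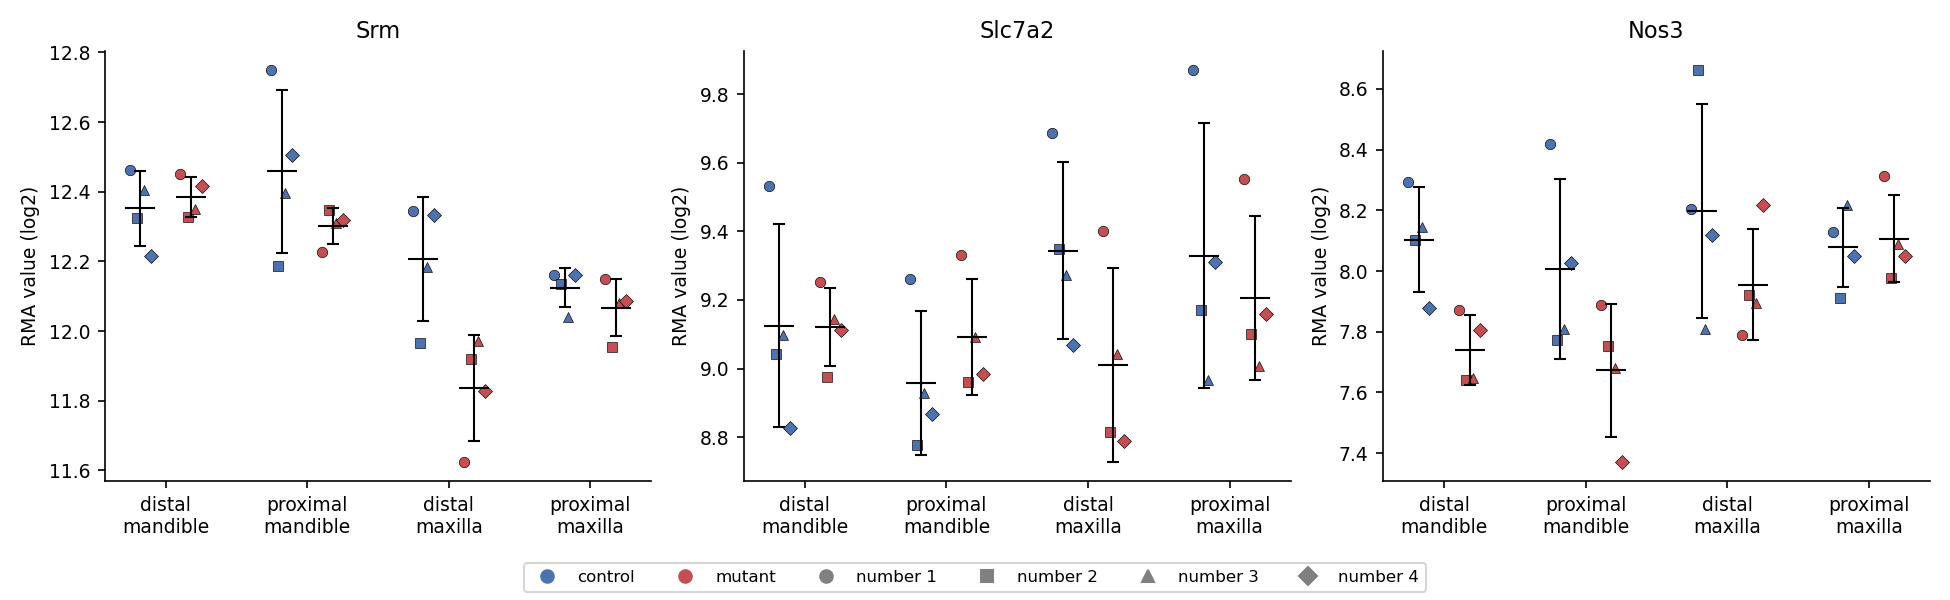
RMA log2 values of Srm, Slc7a2 and Nos3 on each of the 32 arrays (y axes) by jaw region (x axes), with control in blue, mutant in red, a marker shape for each number and mean with SD (n = 4). The control proximal mandible arrays of Srm lie above the control proximal maxilla arrays, Slc7a2 is highest on number 1 in every group, and the 4 mutant distal mandible arrays of Nos3 lie below the 4 controls.

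Counted together, 0 of 8 members were called for genotype in distal mandible, where 262 of 13705 genes were called (1.91%), in distal maxilla (108 genes, 0.788%) and in proximal maxilla (9 genes, 0.0657%). At an unadjusted limma p under 0.05 there were 2, 2 and 1 of them, where 16%, 12.9% and 4.9% of all genes reached that level. For the average over 3 regions 4 of 8 reached it, against 11.1% of all genes, and again 0 were called. Their median difference was -0.00 in distal mandible, -0.12 in distal maxilla and -0.05 in proximal maxilla, against -0.03, -0.03 and 0.02 over all genes. In control tissue 0 of 8 differed between the jaws at the distal end (202 genes called, 1.47%), 0 of 7 tested between the ends of the mandible (664 genes, 4.84%), and 0 of 8 between the ends of the maxilla, where 0 of 13705 genes were called (0%) by limma, 405 of them at an unadjusted p under 0.05; 0 members reached that level in these 3 comparisons. Without the 4 maxilla arrays that ran against their labels, 184 genes were called between the maxilla ends.

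**Figure D4:**
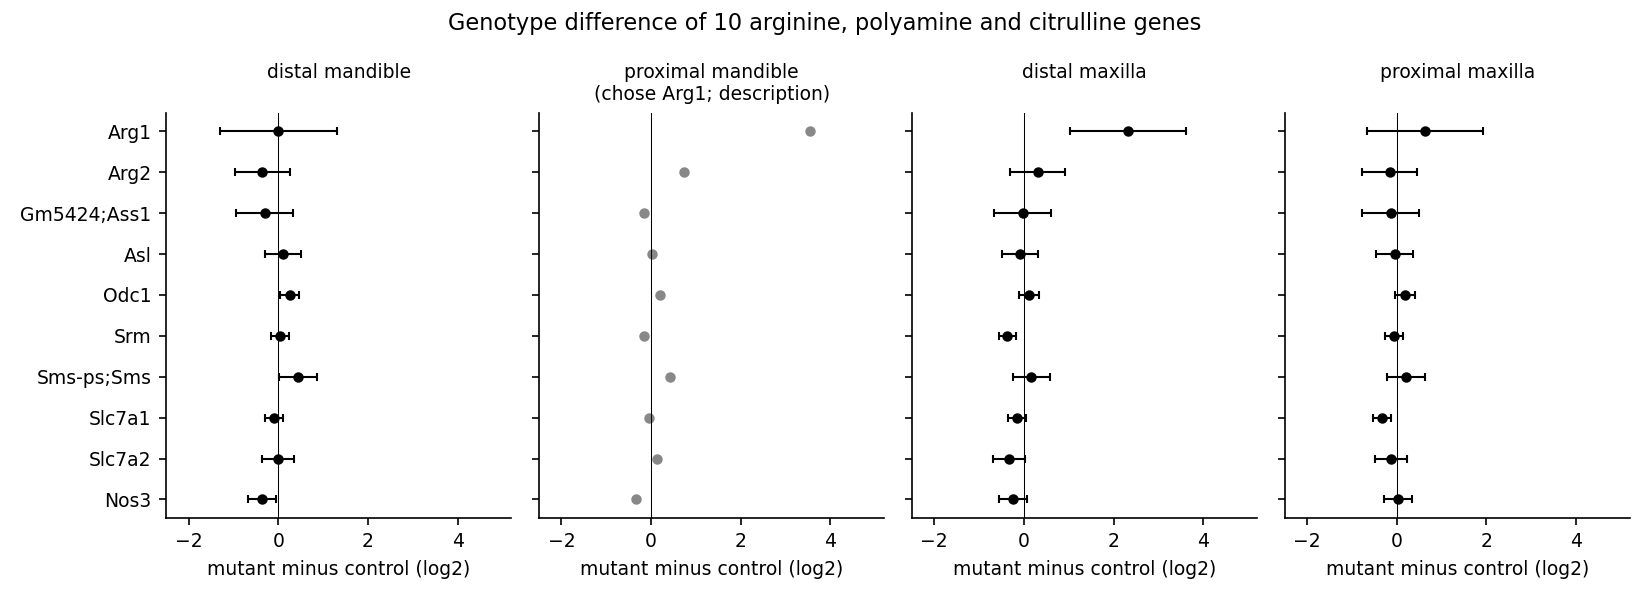
Mutant minus control difference on the log2 scale (x axes) of the 10 members (y axis, Ass1 and Sms by their shared probe sets) in each of 4 jaw regions, with 95% intervals from the limma fit; the proximal mandible, which chose the group, has points only. Arg1 lies at 3.55 in proximal mandible and 2.32 in distal maxilla and at 0.00 in distal mandible, and the other 9 lie within 0.74 of 0.

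Other genes of the same pathways were taken from lists of 82 genes, chosen with earlier results of these data known, of which 66 were measured. In distal mandible 1 of 66 rose and 0 fell, a share of 1.52% against 1.91% of all genes, and 0 of 66 were called for genotype in distal maxilla and in proximal maxilla. At an unadjusted limma p under 0.05 there were 5, 8 and 4 of 66, against 16%, 12.9% and 4.9% of all genes. The list thus stood near or below the shares of all genes in distal mandible. The gene that rose was Slc25a13, which carries aspartate out of mitochondria for the step that Ass1 catalyses. Its control distal mandible arrays read 9.69, 9.88, 9.04 and 9.86 and its mutant arrays 10.32, 10.30, 10.42 and 10.44. Groups did not overlap, and the difference was 0.75 ± 0.14 (limma adjusted p = 0.0042). It was 0.55 without number 3 (limma adjusted p = 0.116), whose control is the array with the high Gapdh ratio, and 0.56 without that control array alone (limma adjusted p = 0.0194). The part of that array's RNA in the result was not tested otherwise. In proximal mandible, the contrast that chose Arg1, the difference was 0.70 as a description, with controls at 9.57 to 9.78 and mutants at 10.14 to 10.45. In distal maxilla it differed by 0.20 ± 0.14 (limma adjusted p = 0.63), and the difference between the jaws' effects at the distal end was 0.56 (limma adjusted p = 0.518).

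Ddah1, which breaks down methylated arginines that inhibit nitric oxide synthases, fell in the average over 3 regions by 0.45 ± 0.06 (limma adjusted p = 0.043), the only one of 66 called there (1.52% against 0.233% of all genes). It passed in 12 of 25 alternatives. Those that lost the call included the fits without number 2, 3 or 4 and without any 1 control number. Also included were the fits without mutant number 2, 3 or 4 and without the 4 maxilla arrays (-0.40, limma adjusted p = 0.293). Mutant group means ran from 10.57 to 10.86 and control means from 11.12 to 11.25 over the 4 regions. In control tissue 1 gene was called between the proximal jaws and 1 between the mandible ends. Gatm, which makes guanidinoacetate from arginine, was higher in proximal mandible (8.98 to 9.48) than in proximal maxilla (6.87 to 8.60), by 1.60 ± 0.37 (limma adjusted p = 0.00845), or 1.32 without control proximal maxilla 2 (limma adjusted p = 0.0505) and 1.43 without number 2 (limma adjusted p = 0.0835). Gamt, which methylates that product to creatine, was lower at the distal (8.55 to 8.86) than at the proximal end (9.35 to 9.85) of the control mandible, by -0.90 ± 0.25 (limma adjusted p = 0.0305), and passed in 16 of 25 alternatives. That call was lost without number 2, 3 or 4, without control distal mandible 2, 3 or 4 and without control proximal mandible 1, 3 or 4. Each was the only one of 66 called in its comparison, 1.52% against 5.4% of all genes between the proximal jaws and 4.84% between the mandible ends. Gatm was not called between the mandible ends (limma adjusted p = 0.105), nor Gamt between the proximal jaws (limma adjusted p = 0.133). Skeletal muscle markers moved in the same directions, 7 of 9 higher in proximal mandible than in proximal maxilla (median 2.79) and 4 of 9 lower at the distal mandible end (median -2.32), and their part in Gatm and Gamt was not tested. The uncalled gene with the smallest adjusted p was Prmt8, an arginine methyltransferase, at -1.84 between the control proximal jaws (limma adjusted p = 0.0551). Among genotype effects of single regions outside the proximal mandible, Prmt5, of the same enzyme family, differed by 0.46 in distal mandible (limma adjusted p = 0.092). In distal maxilla Sat1, which acetylates polyamines for breakdown, differed by 0.38 (limma adjusted p = 0.135), Oat, which turns ornithine towards proline, by -0.31 (limma adjusted p = 0.241), and P4ha2, a collagen prolyl hydroxylase subunit, by -0.40 (limma adjusted p = 0.288).

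Genes whose values followed Arg1 most closely over the 32 arrays were Ldhb (r = 0.84), Chd7 (0.84), Apoe (0.82), Nrip1 (0.81), Ppm1h (0.80), Errfi1 (0.80), Bmf (0.79) and Myrf (0.79). With group means taken off, these ranged from 0.40 for Apoe to 0.77 for Nrip1. For the other members the closest genes were Grtp1 and Tox3 for Arg2 (0.84 and 0.76), Slc25a12 and Ubl3 for Asl (0.91 and 0.90), Ccdc117 and Ppm1k for Odc1 (0.88 and 0.88), Gpr180 and Smyd2 for Srm (0.89 and 0.86), Exoc4 and Ncmap for Slc7a1 (0.69 and 0.67), Lamc1 and Ccdc3 for Slc7a2 (0.82 and 0.82), and Sdc3 and Gucy1a1 for Nos3 (0.85 and 0.82). These are descriptions over arrays that share tissue, array number and normalization, and those for Arg1 include the contrast that chose it. For Slc7a2 the 2 values were 0.54 and 0.56 on the 24 arrays without number 1.

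Markers of other cell types were set beside Arg1. The mean of 19 macrophage markers (19 of 19 measured) was 8.32 in control and 9.02 in mutant proximal mandible, 7.93 to 8.75 over the control and 8.38 to 9.40 over the mutant arrays of distal maxilla, and as means 8.27 and 9.02 in proximal maxilla, and 8.12 and 7.83 in distal mandible. Of the 19, 6 were called higher in proximal mandible, where 1.26% of all genes were called. That contrast chose Arg1, so beside Arg1 this count is only a description. In distal maxilla 4 of the 19 rose (0.788% of all genes called), in proximal maxilla 3 rose (0.0657%) and in distal mandible 2 fell (1.91%). The macrophage mean correlated with Arg1 at r = 0.70 over arrays and 0.16 within groups. All correlations with Arg1 given here include the proximal mandible arrays whose contrast chose it, and are descriptions. Control proximal maxilla 2 combined a high Arg1 (8.84) with the lowest macrophage mean of the 32 arrays (7.75). That array is among the maxilla arrays whose ends ran against their labels. Markers of alternatively activated macrophages (5 of 8 measured) correlated at 0.07, and none of them was called; Retnla, Chil3 and Cd163 were not measured past the filter. Granulocyte markers (5 of 7 measured) averaged 7.18 in control and 8.80 in mutant distal maxilla, but 8.81 and 8.31 in proximal mandible. Of 9 hepatocyte markers, 5 were not measured past the filter, among them Alb and Afp, and the mean of the other 4 was 7.30 to 7.59 in the 8 groups. Neuron markers (7 of 7 measured) correlated with Arg1 at 0.36 over arrays and -0.02 within groups. All 7 were higher in mutant distal maxilla, with 0 called and list means of 9.35 in control and 10.46 in mutant, and all 7 lower in mutant proximal mandible (9.47 and 8.64). Skeletal muscle markers (9 of 9 measured) correlated with Arg1 at -0.01 over arrays and 0.46 within groups. The part of these cells in Arg1 was not tested.

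**Figure D5:**
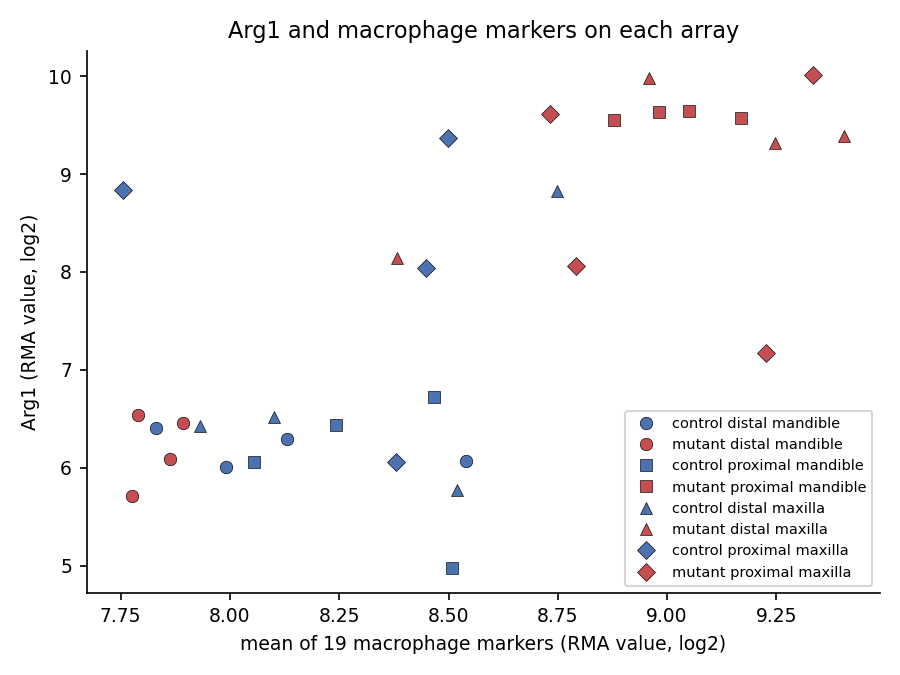
RMA log2 value of Arg1 (y axis) against the mean RMA log2 value of 19 macrophage markers (x axis) on each of the 32 arrays, with control in blue, mutant in red and a marker shape for each jaw region. The 4 mutant proximal mandible arrays (red squares) lie at the upper right, and the arrays of the other 3 mandible groups lie low. Control proximal maxilla 2, among the maxilla arrays whose ends ran against their labels, lies at the upper left.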

How the data were processed

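RNA of 8 groups of 4 tissue samples was hybridised to Affymetrix mouse expression arrays. The authors deposited log2 values made with RMA, per the submitters' processing notes, with its version not stated; RMA scales all arrays to 1 distribution, so a change shared by most genes is removed. Of 45101 probe sets, 34945 carry 1 gene symbol in the platform annotation, 932 several, 9160 none and 64 are controls. Probe sets above the 40th percentile of their array on at least 4 arrays were kept, and each gene was read from its probe set with the highest mean. A single linear model over the 8 groups was fitted with limma 3.58.1 in R 4.3.3 (24 residual degrees of freedom), with eBayes and Benjamini-Hochberg adjustment over 13705 genes and a threshold of 0.05. The average over 3 regions used 4 against 4 averaged values (6 residual degrees of freedom). The procedure was tried on simulated data with independent noise for each gene and array. Those data held no shift of number 1, no source shared between regions and no ends against their labels. They therefore do not check the fits for these features. The number of arrays limits the precision.

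The members and lists were chosen with earlier results of these data known. Genes named are all members, pathway genes past the test or with the smallest adjusted p of their list, Tgfbr1, and the genes most correlated with each member, 8 for Arg1 and 2 for the others. Igdcc3 was named after its value was seen. Alternatives changed the normalization, the filter, the probe set of a gene, the variance model, the terms of the fit and the arrays used. Probe sets with several symbols, all probe sets singly, and the replicate block without number 1 were added after seeing the data. Array numbers were not used to pair the samples in the main fits. In no comparison did every pair of same-numbered arrays have deviations correlated above 0.1. That rule does not exclude pairing, since the pairs gave 0.42, 0.26, 0.31 and 0.08 for the average over 3 regions. Xist was also high on all arrays of control 2 and mutant 1. The tests between jaws and ends treated same-numbered arrays as independent.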

Additional observations from a re-analysis of the deposited data

Results flagged for a closer look

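Of 80 groups of 4 values from the 10 members, 7 held an array whose gap to the nearest other exceeded Dixon's 95% critical value; chance gives about 1 in 20 groups. Of these 7 arrays, 6 were number 1, whose arrays also carried more of the Cre spike-in, and its part in them was not tested. Arg2 read 6.69 on control proximal maxilla 4, with the other 3 controls at 7.94 to 8.05. The Ass1 and Gm5424 probe set read 8.76 on control distal mandible 1 (others 7.23 to 7.42) and 7.83 on mutant distal mandible 1 (others 7.19 to 7.28). Asl read 7.93 on mutant distal maxilla 1 (others 9.15 to 9.31). Odc1 read 13.04 on control proximal mandible 1 (others 13.20 to 13.22). The Sms and Sms-ps probe set read 11.07 on control distal mandible 1 (others 11.73 to 11.78) and 11.16 on control distal maxilla 1 (others 11.81 to 11.86).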

How the results depend on the processing

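Of 2288 alternative values of 98 member effects, 2228 stayed the same. These kept their direction and side of the threshold, or changed sign within the spread while uncalled. A call was gained in 42 and lost in 14. Another 3 uncalled values changed sign by more than the spread. The 1 that reversed was the Asl difference in distal maxilla, at 0.31 with array quality weights. The cause was not tested. Members called numbered 0 in distal mandible, but 1 with number 1 as a term, 2 with array weights, and 0 to 1 leaving out arrays. In distal maxilla 0 became 3 with number 1 as a term, 1 with an intensity trend and robust eBayes, 5 with array weights, 2 without the 4 maxilla arrays and 0 to 2 leaving out arrays. Between control proximal jaws 1 became 0 with the highest-variance probe set, without the 4 maxilla arrays and in a fit of the groups compared alone, 2 with number 1 as a term, 3 with array weights and 0 to 1 leaving out arrays. With array weights, 2 members were called between the control mandible ends (0 to 1 leaving out arrays), 3 for genotype by jaw, 1 for genotype by maxilla end and 1 for the average, which also had 1 over all 4 regions, a mean that includes the contrast behind the choice of genes.

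With the replicate block, 1 member was called in distal mandible, 1 in distal maxilla and 2 between control proximal jaws; with the block and without number 1, an alternative added after seeing the data, 1, 0 and 0, and 1 between the control mandible ends. Genes called with the block numbered 729 against 262 in distal mandible, 315 against 108 in distal maxilla, 34 against 9 in proximal maxilla, 478 against 172 in proximal mandible and 67 against 32 for the average. Since pairing by number was neither shown nor excluded, these are alternatives only.

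Over all alternatives the genes called ranged from 33 to 2641 in distal mandible, 2 to 2480 in distal maxilla, 0 to 213 in proximal maxilla, 33 to 3368 in proximal mandible, 0 to 1290 for the average, 66 to 1197 and 267 to 2625 between control jaws at the distal and proximal ends, 96 to 4445 and 0 to 184 between the ends of control mandible and maxilla, 0 to 910 for genotype by jaw and 0 to 453 for genotype by maxilla end. Arg1 lay above the 40th percentile on 17 of 32 arrays, which limits how well its low group means are measured.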
